A study of Mus musculus with 6 samples.

Results

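Hox genes encode homeodomain transcription factors and lie in 4 clusters, Hoxa on mouse chromosome 6, Hoxb on 11, Hoxc on 15 and Hoxd on 2. Of these, 38 genes are described here across 6 samples of P19 cells. They were chosen by gene symbol, with earlier results of these data known. The array carried a probe for 35 of the 38, out of 17165 named genes on it, and none for Hoxc4, Hoxc6 and Hoxc11. Of the 35, 25 cleared the background on 2 or more arrays and entered the tests, which covered 13381 genes in all. Another 2 cleared it on 1 array and 8 on none.

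P19 is a mouse embryonal carcinoma line, a tumour-derived stem cell line that forms neurons when it is aggregated with retinoic acid. One P19 line expressed AICD, the free intracellular end of the amyloid precursor protein, and the other carried the empty pCDNA vector. Whether a line is 1 clone, and which promoter drives AICD, the labels do not say. Both lines were sampled in 3 states: undifferentiated, before aggregation; aggregated, after 4 days as aggregates with 5e-07 M all-trans retinoic acid; and differentiated, 2 days after the aggregates were replated. Total RNA of each line in each state was labelled with Cy3 and read on 1 single-colour Agilent array, so no line and state has a replicate.

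Along the body axis Hox genes are switched on in the order in which they lie in a cluster, genes of low paralogue number first and in the hindbrain, genes of high number later and towards the tail. Genes of the same number in different clusters are paralogues, descended from 1 ancestral gene. Retinoic acid acts through nuclear receptors that bind enhancers in the clusters, and in embryonal carcinoma cells it is a textbook inducer of the low-numbered end. The proteins bind DNA together with cofactors of the TALE homeodomain class, the Pbx, Meis and Pknox proteins.

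Signals are given on a log2 scale relative to the 75th percentile of the same array (normalized log2 signal), so 0 is the brightness of that percentile. A probe counts as detected when the scanner software called it well above background. Probes differ in their response, so levels are compared between arrays for 1 gene and not between genes. Per array, 62.0% to 65.9% of spots were detected and 0 were saturated. Both undifferentiated arrays lay on slide 1 and the other 4 on slide 2, so the step out of the undifferentiated state cannot be told apart from the slide, while the lines and the replating step are compared within a slide. Of 6 embryonal carcinoma markers 5 were detected on every array except 4 in differentiated vector cells, Zfp42 on none. Their summed signal, in units of the 75th percentile, was 104 and 104 in undifferentiated, 16.9 and 10.9 in aggregated and 15.4 and 4.73 in differentiated AICD and vector cells. Of these, Pou5f1 was detected on all 6 arrays and read 3.19 in AICD aggregates against -2.39 in vector aggregates, and 3.24 against -0.64 after replating. Sox2 read 2.89 and 3.37 in AICD and vector aggregates and 2.46 and 1.88 after replating. A sum is weighted towards its brightest probe, which was that of Sox2 in aggregated and differentiated vector cells. The 8 neuron markers, 7 of them detected before aggregation and 8 later, summed to 14.4 and 14.3, to 82.4 and 52.5, and to 153 and 192 in the same states and lines. The sums of 5 neural progenitor markers, all detected, ran from 36.1 to 142, those of 5 glial markers, of which Gfap and Aqp4 were detected on no array, from 3 to 9.26, and those of 5 mesoderm and 5 endoderm markers from 0.249 to 3.48. The brightest glial probe on every array was that of Mbp, which already read 1.82 and 1.55 in undifferentiated AICD and vector cells. In bulk RNA, fewer cells of a type and less RNA per cell cannot be told apart.

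The first question is which Hox genes were detected after 4 days of aggregation with retinoic acid. No aggregates without retinoic acid are among the 6 samples, so aggregation and retinoic acid cannot be told apart. In both lines a nearly complete block of genes from paralogue number 1 to 9 was detected in aggregates, and the genes numbered 10 to 13 were not, with Hoxb13 of the AICD line as the exception. Of the 24 genes of number 1 to 9 on the array, 22 were detected in AICD aggregates and 23 in vector aggregates, against 14 in undifferentiated AICD cells and 14 in undifferentiated vector cells. Of the 11 genes of number 10 to 13, 1 and 0 were detected in AICD and vector aggregates, against 4 and 2 in the undifferentiated cells of these lines. The division at number 9 was drawn after the values were seen.

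**Figure D1:**
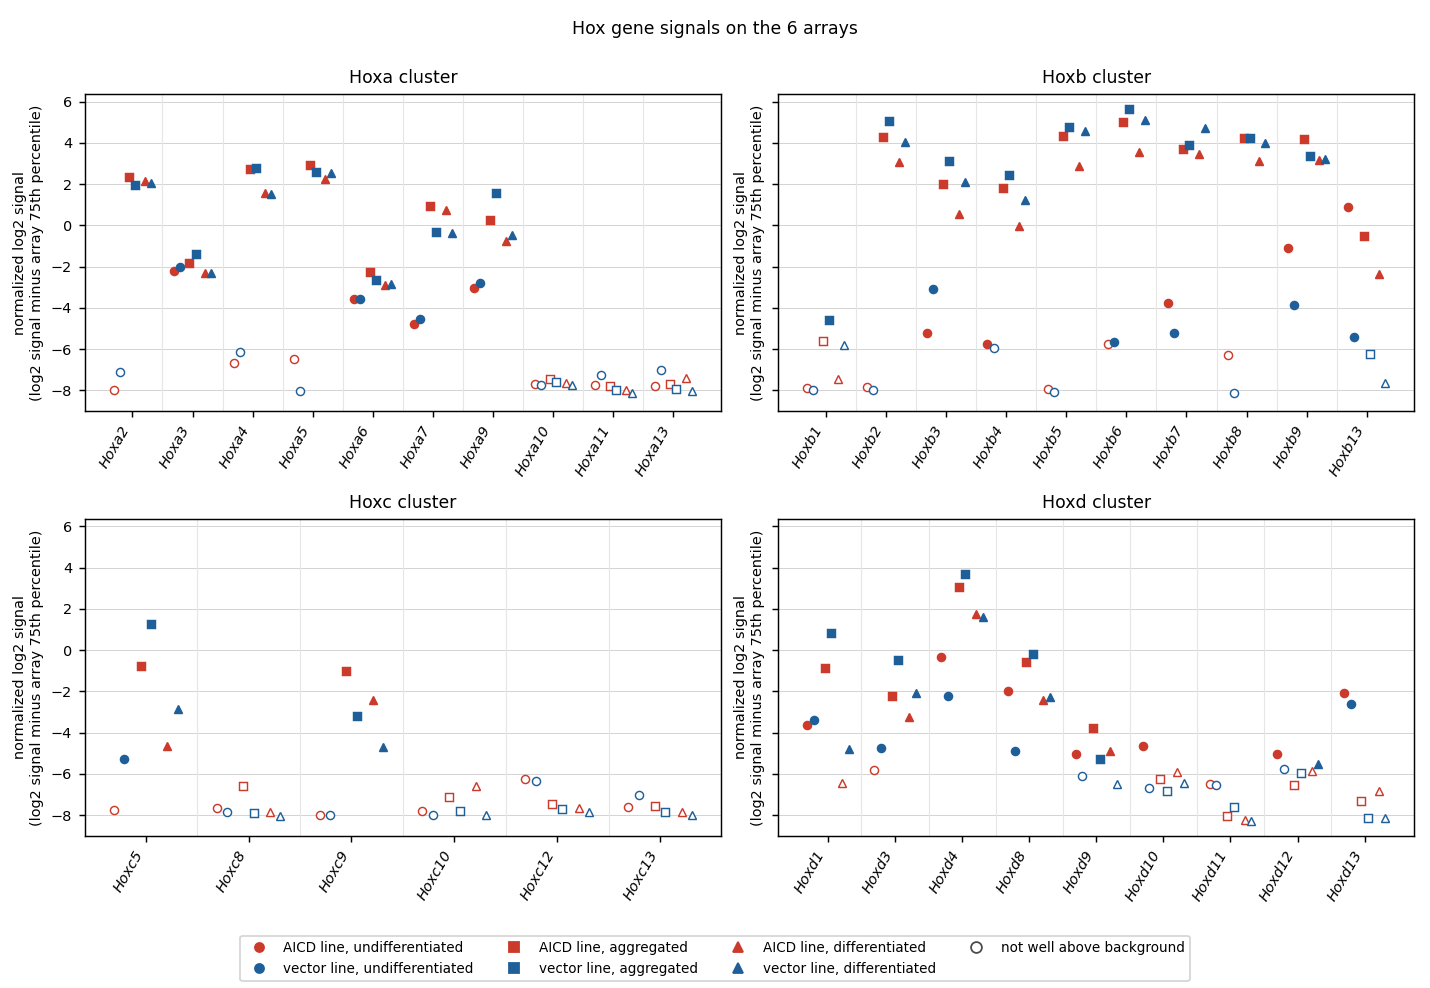
Normalized log2 signal of the 35 Hox genes on each of the 6 arrays, 1 panel per cluster, genes ordered by paralogue number; red is the AICD line and blue the vector line, circles undifferentiated, squares aggregated and triangles differentiated, and hollow symbols were not well above background. Heights are comparable between arrays for 1 gene only. The squares and triangles of most genes numbered 1 to 9 stand above their circles, while Hoxa10, Hoxa11, Hoxa13 and Hoxc10, Hoxc12 and Hoxc13 stay hollow throughout.

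Across both lines, limma, fitted to all 6 arrays with state and line as terms, called 20 of the 25 tested Hox genes higher and 2 lower in aggregates than in undifferentiated cells, at a Benjamini-Hochberg adjusted p under 0.05. Over all 13381 genes, 14.3% were called higher and 27.8% lower. The median Hox difference was 5.87 on the log2 scale, against -0.31 over all genes tested. With each undetected array of a Hox gene set to the dimmest signal that counts as detected there, or to the probe's own where higher, the Hox median was 4.98. Under quantile normalization the all-gene median was -0.13, with 2129 genes called higher and 2692 lower in place of 1909 and 3718, and 20 Hox genes were called higher. By cluster the calls were 6 of 7 tested genes higher in Hoxa, 8 of 9 higher and 1 lower in Hoxb, 2 of 2 higher in Hoxc, and 4 of 7 higher and 1 lower in Hoxd. Hoxa2, Hoxa5, Hoxb2, Hoxb5, Hoxb8, Hoxc9 and the Hoxa4 probe used entered the tests through later arrays alone. Hoxd13 entered through the undifferentiated pair alone, so for these genes the filter depends on the difference tested. With no filter on dim probes, 21 of 35 Hox genes were called higher and 3 lower, among 1621 and 3298 of 17165 genes. Without the AICD or without the vector aggregate limma called 0 of all genes, and 21 of the 25 Hox genes then had an unadjusted p under 0.05 in each case.

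Promoter windows of Hoxa5, Hoxb4, Hoxd4 and Hoxb8, called higher in aggregates, are shown beside those of Hoxd10 and Hoxb1, which were not tested, so that the letters around the start sites can be seen beside the values. RefSeq windows of GRCm38.p6 from 250 bases before to 50 after the start were at hand for 22 of the 38 genes. The core half-site of retinoic acid receptors, AGGTCA on either strand, occurred in 16.3% of all 32851 windows. It was present in 7 of the 22 Hox genes, namely in 4 of 11 called higher in aggregates (Hoxa5, Hoxb4, Hoxd3 and Hoxd4), in 2 of 10 not called higher (Hoxd8 and Hoxd10), and in Hoxc4, which has no probe. Those not called include genes that were never tested, Hoxd10 among them, and Hoxd8 read higher in aggregates of both lines without passing. These counts therefore do not set genes that rose against genes that did not. Capitals mark the half-site in Hoxa5, Hoxb4, Hoxd4 and Hoxd10, as read 5′ to 3′ on the strand of the gene.
Hoxa5, chr6:52204538-52204837, strand -: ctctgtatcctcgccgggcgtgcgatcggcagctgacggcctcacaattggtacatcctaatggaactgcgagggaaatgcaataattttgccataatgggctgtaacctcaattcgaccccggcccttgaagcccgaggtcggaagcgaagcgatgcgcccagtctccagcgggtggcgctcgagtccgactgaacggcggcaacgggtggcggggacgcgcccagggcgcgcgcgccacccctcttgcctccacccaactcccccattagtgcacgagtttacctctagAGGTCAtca
Hoxb4, chr11:96318017-96318316, strand +: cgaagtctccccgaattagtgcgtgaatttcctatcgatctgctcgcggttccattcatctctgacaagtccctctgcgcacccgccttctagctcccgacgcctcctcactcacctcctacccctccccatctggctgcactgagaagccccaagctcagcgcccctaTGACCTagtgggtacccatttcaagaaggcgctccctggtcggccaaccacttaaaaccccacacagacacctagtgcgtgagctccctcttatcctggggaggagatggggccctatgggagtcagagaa
Hoxd4, chr2:74721728-74722027, strand +: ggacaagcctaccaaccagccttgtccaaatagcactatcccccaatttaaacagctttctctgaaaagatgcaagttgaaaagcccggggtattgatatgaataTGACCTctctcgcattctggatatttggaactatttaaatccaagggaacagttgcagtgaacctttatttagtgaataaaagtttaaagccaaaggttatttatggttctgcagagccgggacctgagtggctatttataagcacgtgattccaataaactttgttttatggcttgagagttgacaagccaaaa
Hoxd10, chr2:74691641-74691940, strand +: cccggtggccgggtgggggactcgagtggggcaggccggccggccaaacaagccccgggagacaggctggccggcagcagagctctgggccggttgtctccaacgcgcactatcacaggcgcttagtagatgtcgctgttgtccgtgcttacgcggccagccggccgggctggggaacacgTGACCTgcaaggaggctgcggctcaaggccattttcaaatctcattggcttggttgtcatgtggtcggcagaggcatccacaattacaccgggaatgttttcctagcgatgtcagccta

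Direct repeats of that half-site with a gap of 5 or of 2 bases, the classical receptor elements, were in 0 of the Hox windows and in 0.00913% of all windows each. Both contain the half-site, so these searches overlap. A core of joint Hox and Pbx binding, TGATNNAT on either strand, was in 8.85% of all windows and in those of Hoxa2, Hoxb1, Hoxb8 and Hoxd11. Capitals mark TGATNNAT, read on either strand, in Hoxb1, which regulates its own transcription together with Pbx proteins, and in Hoxb8. The letters TTTATNG, a caudal-type (Cdx) motif, were in 10.9% of all windows and in those of Hoxb8 and Hoxd4. A match describes the letters of a window only, and enhancers farther away lie outside it.
Hoxb1, chr11:96365508-96365807, strand +: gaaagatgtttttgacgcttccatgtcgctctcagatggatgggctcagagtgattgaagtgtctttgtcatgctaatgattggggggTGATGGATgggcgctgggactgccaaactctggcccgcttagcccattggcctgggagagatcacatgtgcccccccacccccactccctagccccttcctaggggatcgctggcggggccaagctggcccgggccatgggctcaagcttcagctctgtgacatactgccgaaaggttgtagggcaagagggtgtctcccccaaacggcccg
Hoxb8, chr11:96281655-96281954, strand +: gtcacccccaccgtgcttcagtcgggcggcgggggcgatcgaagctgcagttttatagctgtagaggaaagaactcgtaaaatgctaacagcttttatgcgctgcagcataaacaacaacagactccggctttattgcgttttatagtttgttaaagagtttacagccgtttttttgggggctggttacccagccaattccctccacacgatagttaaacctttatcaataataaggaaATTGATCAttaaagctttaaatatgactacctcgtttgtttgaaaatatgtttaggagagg

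The median difference between aggregates and undifferentiated cells was 8.28 in Hoxb, 4.98 in Hoxa and 3.03 in Hoxd, the same with undetected arrays set to the dimmest detected signal. In the 2 Hoxc genes it was 6.31, or 4.75 with undetected arrays set so. The difference between clusters was not tested. Hoxb2, a hindbrain gene of the second paralogue group, was not well above background in undifferentiated AICD and vector cells (normalized log2 signals of -7.84 and -7.97), and stood at 4.31 in AICD aggregates and 5.07 in vector aggregates, and at 3.05 and 4.04 in differentiated AICD and vector cells. The 4 later arrays were all high and both undifferentiated arrays at background. Against the lowest signal that counts as detected, Hoxb2 was at least 1478-fold higher in aggregates (limma adjusted p = 0.00679). That bound holds for the main processing, and the log2 difference ran from 7.74 to 13.1 over the alternatives. Hoxb5, which patterns the vagal and upper cervical level, was likewise undetected before aggregation in both lines, at -7.93 in AICD and -8.07 in vector cells. It read 4.34 and 4.79 in AICD and vector aggregates and 2.88 and 4.59 after replating, with no overlap between undetected and detected arrays. It was at least 1353-fold higher in aggregates than before (adjusted p = 0.00679).

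Hoxb8, a thoracic gene of the trunk, was undetected at -6.30 and -8.11 in undifferentiated AICD and vector cells and read 4.23 and 4.24 in their aggregates and 3.13 and 3.99 after replating. The rise in aggregates was at least 1080-fold (adjusted p = 0.007995). A second Hoxb8 probe read -4.21 and -3.98 in AICD and vector aggregates and was undetected in both undifferentiated lines. Hoxb6, of the same trunk region, was undetected in undifferentiated AICD cells (-5.76) and detected in undifferentiated vector cells (-5.64). It read 4.99 and 5.66 in AICD and vector aggregates and 3.54 and 5.10 after replating, so all 4 later arrays lay far above both early ones. In limma it was higher in aggregates by 11.02 ± 0.39 (log2 difference ± standard error, 2 arrays per state, adjusted p = 0.00679).

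Hoxb3, Hoxb4, Hoxb7 and Hoxb9 had some signal before aggregation and rose from there. Hoxb4, a hindbrain and neck gene also known from blood stem cells, read -5.75 in undifferentiated AICD cells and -5.93, undetected, in undifferentiated vector cells. It read 1.83 and 2.46 in AICD and vector aggregates and -0.04 and 1.24 after replating. Both aggregates exceeded both undifferentiated arrays, by 7.98 ± 0.39 in limma (adjusted p = 0.00749). Hoxb3, of the third paralogue group, was higher in aggregates by 6.71 ± 0.29 (adjusted p = 0.00679), and its second probe read 3.25 and 3.62 in AICD and vector aggregates and was undetected before, at -8.11 and -8.20. Hoxb7 read -3.78 and -5.21 in undifferentiated, 3.70 and 3.87 in aggregated and 3.44 and 4.73 in differentiated AICD and vector cells, and Hoxb9 -1.09 and -3.86, 4.20 and 3.34, and 3.18 and 3.21. In both genes all 4 later arrays lay above both early ones. Hoxb7 was higher by 8.28 ± 0.69 and Hoxb9, at the tailward end of the main Hoxb series, by 6.24 ± 0.73, with adjusted p of 0.0114 and 0.0136.

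Hoxb1, the gene that marks the fourth hindbrain segment, was detected on 1 array only, that of vector aggregates, and was not tested. Its probe is spotted 10 times on an array. In aggregates 2 of 10 spots were detected in the AICD line, against 10 of 10 in the vector line. In differentiated cells 0 of 9 usable spots were detected in the AICD line and 3 of 9 in the vector line, and in undifferentiated cells 0 of 10 in either line. The spots of AICD aggregates averaged -5.62 ± 0.27 and those of vector aggregates -4.58 ± 0.20 (SD over 10 spots of 1 array, a measure of spotting and not of cultures).

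In Hoxa, 6 of the 7 tested genes rose. Hoxa5, needed for lung and neck skeleton, was undetected in undifferentiated AICD and vector cells (-6.50 and -8.02) and read 2.94 and 2.60 in their aggregates and 2.24 and 2.53 after replating. It was at least 392-fold higher in aggregates (adjusted p = 0.00715). Hoxa2, which specifies the second branchial arch, was undetected at -7.99 and -7.12 in undifferentiated AICD and vector cells and read 2.33 and 1.95 in their aggregates and 2.16 and 2.04 after replating. Its rise was at least 253-fold (adjusted p = 0.00679). In both genes the lines lay within 0.38 of each other in aggregates and after replating.

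Hoxa4 and Hoxa3 have 2 probes each that do not read alike. The Hoxa4 probe used for the test read 2.75 and 2.76 in AICD and vector aggregates and was undetected before aggregation, at -6.69 and -6.13 in AICD and vector cells. That probe was at least 387-fold higher in aggregates (adjusted p = 0.00679). The other was detected on all 6 arrays, at -0.05 and -0.09 in AICD and vector aggregates against -3.54 and -3.99 before. Both probes were higher in both aggregates. For Hoxa3, the probe used was detected throughout and nearly flat, at -2.20 and -2.01 in undifferentiated, -1.85 and -1.38 in aggregated and -2.32 and -2.29 in differentiated AICD and vector cells, a difference of 0.49 ± 0.18 that did not pass (adjusted p = 0.0924). The other Hoxa3 probe was undetected before aggregation at -7.53 and -7.63, and read -0.22 and -0.03 in AICD and vector aggregates and -0.98 and -1.45 after replating. The mean of both probes was called higher in aggregates.

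Hoxa7 and Hoxa9, trunk genes, were detected on all 6 arrays and rose in aggregates by 4.98 ± 0.44 and 3.82 ± 0.35 (adjusted p of 0.0116 and 0.0118). Hoxa9 read -3.02 and -2.82 in undifferentiated, 0.24 and 1.58 in aggregated and -0.76 and -0.47 in differentiated AICD and vector cells, the later arrays all above the early ones. Hoxa6 rose by 1.14 ± 0.18 (adjusted p = 0.0195), the least of the 6 Hoxa genes called. Hoxa10, Hoxa11 and Hoxa13, the limb, uterine and genital genes at the far end of the cluster, were undetected on every array, with readings between -8.12 and -7.03. Hoxa13 has a second probe, which was undetected everywhere too.

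In Hoxc, 2 of the 6 genes on the array were ever detected. Hoxc9, a thoracic gene, was undetected in undifferentiated AICD and vector cells (-7.98 and -7.99) and read -1.004 and -3.22 in AICD and vector aggregates and -2.41 and -4.72 after replating. It was at least 13.3-fold higher in aggregates (adjusted p = 0.0132). Hoxc5 was undetected in undifferentiated AICD cells (-7.76) and weak in undifferentiated vector cells (-5.26), and read -0.76 and 1.25 in AICD and vector aggregates and -4.67 and -2.84 after replating. Both aggregates exceeded both earlier arrays, by 6.75 ± 0.22 in limma (adjusted p = 0.00679). Hoxc8, Hoxc10, Hoxc12 and Hoxc13 were undetected on all 6 arrays.

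In Hoxd, the low-numbered genes Hoxd1, Hoxd3 and Hoxd4 rose by 3.51 ± 0.43, 3.91 ± 0.24 and 4.64 ± 0.64 (adjusted p of 0.014, 0.007995 and 0.0162). The Hoxd3 probe used was undetected in undifferentiated AICD cells (-5.79). A second Hoxd3 probe read -5.22 and -3.60 in AICD and vector aggregates, against -5.36 and -6.28, the last undetected, before aggregation. Hoxd4, whose window above carries the half-site, read -0.34 and -2.20 in undifferentiated AICD and vector cells, 3.07 and 3.67 in aggregates and 1.75 and 1.63 after replating. Hoxd9 rose by 1.06 ± 0.20 (adjusted p = 0.0251), a value of 0.12 with normexp background correction. Its second probe read -2.98 and -5.47 in AICD and vector aggregates, against -4.40 and -7.70, the last undetected, before aggregation. Hoxd8 read -1.97 and -4.87 in undifferentiated, -0.59 and -0.18 in aggregated and -2.43 and -2.26 in differentiated AICD and vector cells. In aggregates it was higher in both lines, by 1.38 in the AICD line and 4.69 in the vector line, and missed the threshold with a difference of 3.03 ± 0.93 (adjusted p = 0.0637).

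At the far end of Hoxd, 1 gene was called lower. Hoxd13, which shapes digits and the urogenital tract, was detected in undifferentiated AICD and vector cells at -2.09 and -2.60 and on no later array, where it read -7.34 and -8.12 in aggregates and -6.83 and -8.15 after replating. It was at least 11.3-fold lower in aggregates (adjusted p = 0.00679), although a second probe of the gene was undetected on every array. Hoxb13 was the other gene called lower, by -1.13 ± 0.28 (adjusted p = 0.0418), and it lost that call under normexp correction, quantile normalization, no filter and a fit without the line term, and without any 1 of the undifferentiated or aggregated arrays (adjusted p from 0.0556 to 0.795 over these). Hoxd10, whose window carries the same half-site as that of Hoxd4, was detected in undifferentiated AICD cells alone (-4.65). Hoxd12 was detected in undifferentiated AICD cells (-5.02) and differentiated vector cells (-5.52), close to the limit, and did not pass (adjusted p = 0.134). Hoxd11 was undetected on all 6 arrays.

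Each line on its own followed this pattern. Between undifferentiated cells and aggregates, the AICD line gained detection of 8 Hox genes and lost that of 3, and the vector line gained 9 and lost 2. Among all genes, 9.13% of those undetected before were gained and 7.8% of those detected were lost in the AICD line, and 11.3% and 7.2% in the vector line. Of the Hox genes detected at both ends, 11 of 13 in the AICD line and 11 of 13 in the vector line were at least 2-fold higher, where the share over all genes was 10.8% and 11.9%. At least 2-fold lower were 1 Hox gene in the AICD line (Hoxb13) and 0 in the vector line, against 17.2% and 22% of all genes. Hoxa4 in both lines and Hoxd3 in the AICD line, whose probes differ in detection before aggregation, are not among those gained or detected at both ends. These counts come from 1 array on each side and have no test.

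**Figure D2:**
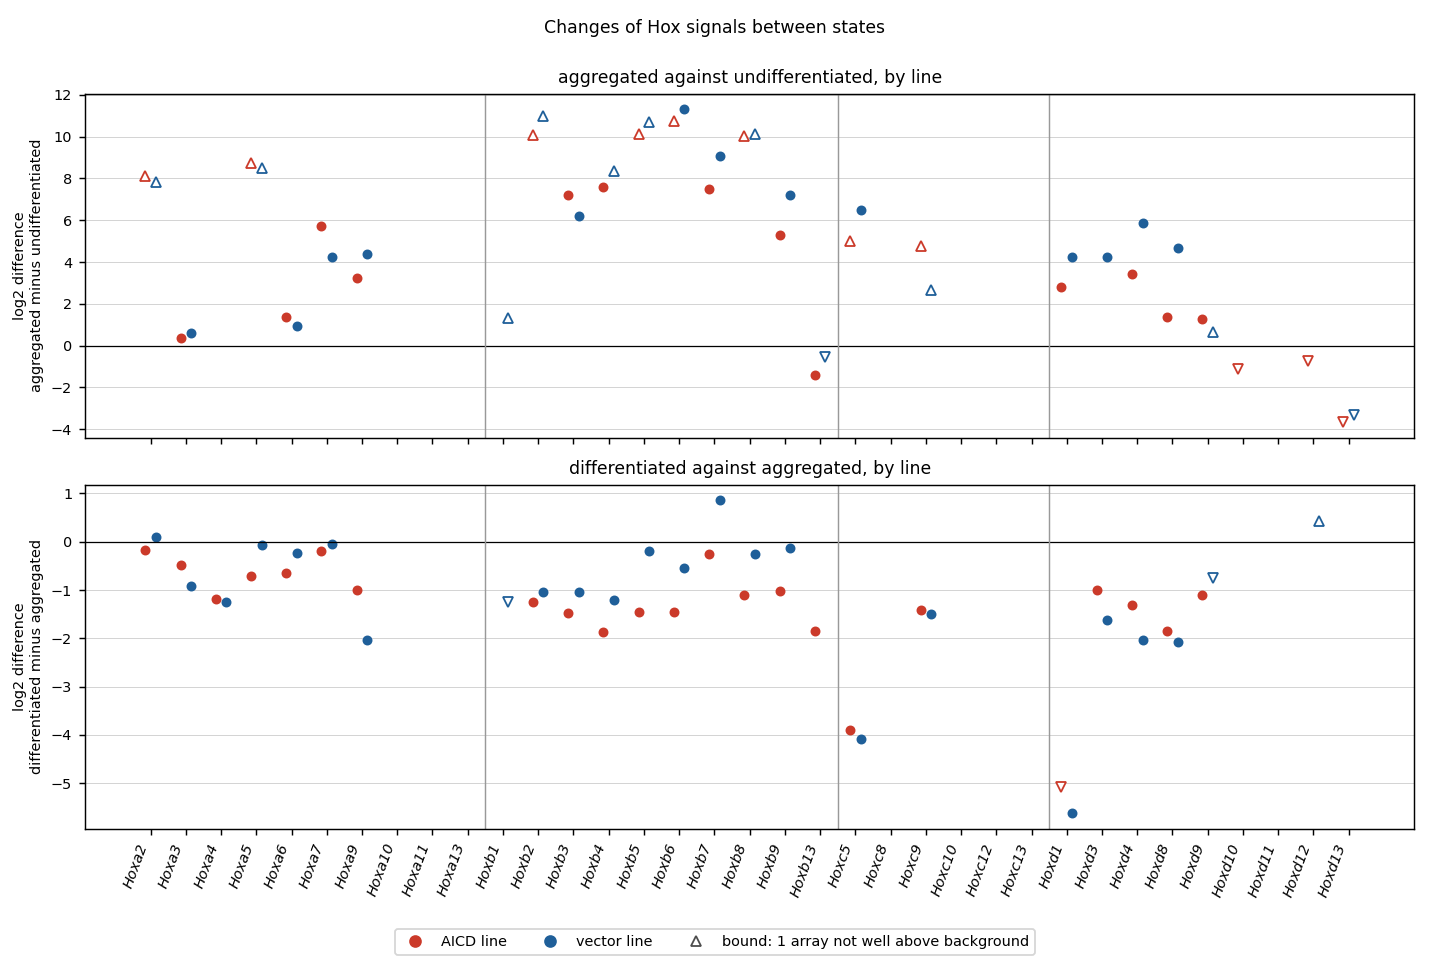
Log2 difference of each Hox gene between successive states, by line; the upper panel is aggregated minus undifferentiated and the lower panel differentiated minus aggregated, red the AICD line and blue the vector line, and hollow triangles are bounds where 1 of the 2 arrays was not well above background. Genes with no symbol were detected on neither array or, like Hoxa4 in the upper panel, have probes that differ in detection. Most upper symbols lie far above 0 and most lower symbols lie below it, and Hoxd13 has downward triangles in the upper panel.

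Genes that flank the clusters, a list drawn up after these values were seen, were mostly not called higher. Of the 4 nearest protein-coding genes with a probe on each side of each cluster, 30 of 32 were tested, of which 3 were higher and 9 lower in aggregates, where 14.3% and 27.8% of all genes were. Their median difference was -0.37, against -0.31 over all genes. The 3 that rose were Skap2 (log2 difference 3.51, adjusted p = 0.026), Skap1 (undetected before aggregation, at least 11.2-fold, adjusted p = 0.009) and Smug1 (log2 difference 3.36, adjusted p = 0.016). Each of them is the gene next to the low-numbered end of its cluster, Skap2 beside Hoxa, Skap1 beside Hoxb and Smug1 beside Hoxc. Mtx2, the gene in that place beside Hoxd, was lower by -0.63 (adjusted p = 0.042).

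The second question is what became of the Hox signals in the 2 days after replating. Nearly all read lower than in aggregates in both lines, by differences that did not pass the test, and most stayed above the undifferentiated state. Of 20 Hox genes detected on all 4 aggregated and differentiated arrays, 20 were lower after replating in the AICD line and 18 in the vector line, the exceptions being Hoxa2 and Hoxb7. The median difference over the 25 tested Hox genes was -1.15, against -0.08 over all genes. limma called 0 of 25 Hox genes higher or lower, and 0% of all 13381 genes in either direction, while 11 Hox genes and 4346 of all genes had an unadjusted p under 0.05. With normexp background correction, limma called 7 Hox genes lower (Hoxa4, Hoxa9, Hoxb2, Hoxb3, Hoxb4, Hoxc5 and Hoxd1) among 1368 genes called in all.

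Hoxd1 and Hoxc5 stood lowest relative to aggregates. Hoxd1, an early retinoic acid responsive gene of the first paralogue group, read -3.64 and -3.39 in undifferentiated, -0.84 and 0.83 in aggregated and -6.42 and -4.79 in differentiated AICD and vector cells, undetected in the AICD line at the end. Both differentiated arrays lay below both arrays of each earlier state. The replating difference was -5.60 ± 0.43 (adjusted p = 0.0658). Hoxc5 read -4.67 and -2.84 after replating in AICD and vector cells, against -0.76 and 1.25 in aggregates, a difference of -3.996 ± 0.224 (adjusted p = 0.0536). Hoxa2, Hoxa7 and Hoxb7 had limma differences of -0.04 ± 0.36, -0.12 ± 0.44 and 0.30 ± 0.69. That of Hoxb7 averages -0.26 in the AICD line and 0.86 in the vector line.

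At least 2-fold lower after replating were 15 of the 22 Hox genes detected on both AICD arrays and 11 of the 21 on both vector arrays, against 4.48% and 11.4% of all genes. At least 2-fold higher were 0 in either line, where the shares of all genes were 6.69% and 11.1%. Detection was lost for Hoxd1 in the AICD line and for Hoxb1 and Hoxd9 in the vector line, which gained Hoxd12. Among all genes, 1.73% of those detected were lost in the AICD line and 2.72% in the vector line, and 11.7% and 9.91% of those undetected were gained. For all 8 Hoxb genes from Hoxb2 to Hoxb9 the replating difference was further down in the AICD line, for example -1.45 in the AICD line against -0.20 in the vector line for Hoxb5, and -1.10 against -0.25 for Hoxb8. For Hoxd3, Hoxd4 and Hoxd8 it was less far down in the AICD line. With 1 array each, these contrasts between the lines have no test.

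Over the whole course, differentiated against undifferentiated, limma called 18 Hox genes higher and 3 lower, against 20.1% and 41.3% of all genes. The median Hox difference was 4.42, against -0.44 over all genes, and 2.96 with undetected arrays set to the dimmest detected signal. Hoxb5 was at least 764-fold, Hoxb8 at least 675-fold and Hoxb2 at least 668-fold higher than before aggregation, with adjusted p of 0.00497, 0.00512 and 0.00497. The 3 lower genes were Hoxd13 (at least 12.3-fold, adjusted p = 0.00497), Hoxb13 (-2.77 ± 0.28, adjusted p = 0.00736) and Hoxd1 (-2.09 ± 0.43, adjusted p = 0.0182). The Hoxd1 call was lost with normexp background correction (-0.79, adjusted p = 0.0907). In a fit without the line term Hoxd1 and Hoxb13 lost their calls (adjusted p of 0.0719 and 0.497), as did Hoxc5. With normexp 15 Hox genes were higher, without Hoxa6, Hoxc5 and Hoxc9, and 2 were lower. Hoxa3, Hoxd8, Hoxd9 and Hoxd12 passed in neither direction. In the AICD line 7 of 12 Hox genes detected at both ends were at least 2-fold higher and 1 lower (13.2% and 24.6% of all genes), with 8 of 17 gained and 4 of 18 lost (11.6% and 5.82%). In the vector line 10 of 13 were at least 2-fold higher and 1 lower (17.4% and 33.3%), with 8 of 19 gained and 2 of 16 lost (13.3% and 6.94%).

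The third question is whether the AICD line differs from the vector line in its Hox genes. Over the 3 states limma called 1 Hox gene higher in the AICD line, Hoxb13, and 0 lower, against 0.209% and 0.142% of all genes. The clusters divided between directions, with 11 of the 25 tested genes higher and 14 lower and a median of -0.06, or 0.05 with undetected arrays set to the dimmest detected signal. In the ninth paralogue group Hoxb9, Hoxc9 and Hoxd9 read higher in the AICD line over the states, by 1.20, 1.51 and 1.37, and Hoxa9 lower, by -0.61, none of them past the threshold.

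Hoxb13, which in the embryo marks the tail end of the axis and in the adult the prostate and hindgut, stands apart from the other Hoxb genes at the far end of the cluster. It read 0.88 in undifferentiated, -0.53 in aggregated and -2.38 in differentiated AICD cells. In vector cells it was detected before aggregation only, at -5.39, and undetected at -6.25 and -7.67 in the 2 later states. All 3 AICD arrays lay far above all 3 vector arrays. The line difference was 5.76 ± 0.23 (3 arrays per line, adjusted p = 0.0268, higher in 3 of 3 states). It was 77.5-fold in undifferentiated cells, at least 42.5-fold in aggregates and at least 12.4-fold after replating. The call was lost with normexp background correction (3.06, adjusted p = 0.0685) and with no filter on dim probes (5.76, adjusted p = 0.0694), and without any 1 of the 4 later arrays (5.79 to 5.999, adjusted p of 0.193 to 0.198), when limma called 0 of all genes and 1047 to 1273 had an unadjusted p under 0.05. Ttll6, the gene next to Hoxb13 outside the cluster, read -1.08 in undifferentiated AICD cells and -5.40 in undifferentiated vector cells, and was detected on no later array.

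Hoxc9, Hoxd9 and Hoxa7 were higher in the AICD line without passing. Hoxc9 was higher by 2.21 in aggregates and 2.31 after replating and undetected in both undifferentiated lines, a line difference of 1.51 ± 0.54 (adjusted p = 0.397). Within slide 2, which leaves out the undifferentiated pair, it was 2.26 with an adjusted p of 0.0486. Hoxd9 was detected on all 3 AICD arrays, at -5.06, -3.79 and -4.89 from undifferentiated to differentiated, and among vector arrays on that of aggregates alone, at -5.26, a line difference of 1.37 ± 0.16 (adjusted p = 0.0835). Its second probe gave the same pattern of detection. Hoxa7 was alike in undifferentiated cells, at -4.78 and -4.53 in the AICD and vector lines. It was higher in the AICD line later, at 0.95 against -0.31 in aggregates and 0.77 against -0.35 after replating (0.71 ± 0.36 over the states, adjusted p = 0.516).

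Hoxc5, Hoxd3, Hoxb3 and Hoxd1 were lower in the AICD line in every state, also without passing. Hoxc5 had a line difference of -2.11 ± 0.18 (adjusted p = 0.0569) and was the next Hox gene after Hoxb13 in the order of p. That estimate and its error take the undetected reading of undifferentiated AICD cells (-7.76) as measured. Against the dimmest detected signal Hoxc5 was at least 1.44-fold lower in that state. It was 4.03-fold lower in aggregates and 3.55-fold lower after replating. Hoxb3 read -5.21, 2.01 and 0.54 in the AICD line and -3.08, 3.12 and 2.08 in the vector line, a difference of -1.60 ± 0.24 (adjusted p = 0.12). Its second probe was undetected in both undifferentiated lines. That probe read 3.25 and 3.62 in AICD and vector aggregates and 2.14 and 3.14 after replating. Hoxd3 read -5.79, undetected, -2.23 and -3.24 in the AICD line and -4.73, -0.48 and -2.10 in the vector line. It differed by -1.31 ± 0.19 (adjusted p = 0.117) and Hoxd1 by -1.18 ± 0.35 (adjusted p = 0.325). The second Hoxd3 probe did not keep that order, being detected in undifferentiated AICD cells (-5.36) and not in undifferentiated vector cells (-6.28).

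**Figure D3:**
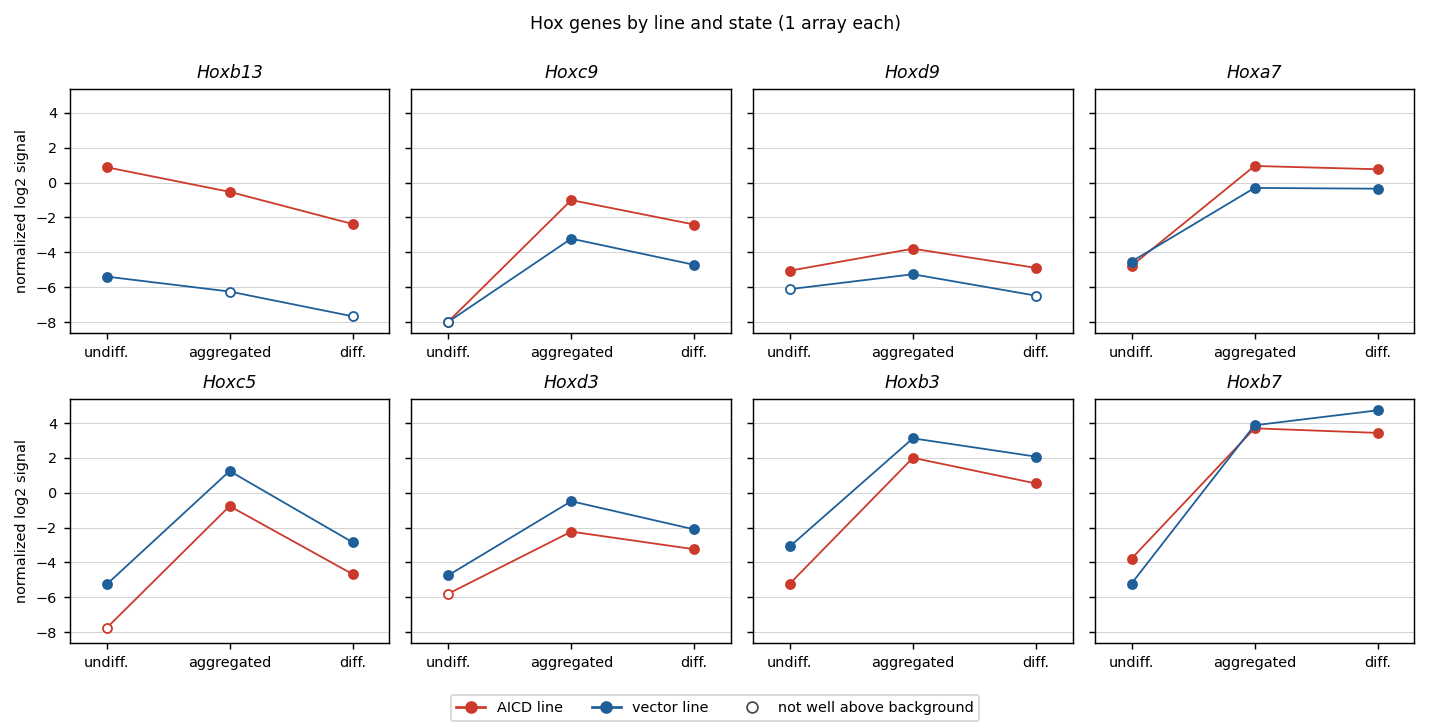
Normalized log2 signal of 8 Hox genes in the 3 states, 1 array per point, red the AICD line and blue the vector line; hollow points were not well above background. Hoxb13 is above in the AICD line in all 3 states, Hoxc5, Hoxd3 and Hoxb3 are below in all 3, and Hoxb7 crosses from above to below.

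State by state, the sign of the line difference changed for many genes. In undifferentiated cells, 12 Hox genes were detected in both lines, of which 5 were higher by 2-fold or more in the AICD line and 1 was lower by as much, against 4.21% and 4.12% of all genes. The 5 were Hoxb13, Hoxd8 (7.49-fold), Hoxb9 (6.83-fold), Hoxd4 (3.63-fold) and Hoxb7 (2.69-fold). The second Hoxb9 probe went the same way, at -2.94 in AICD and -5.24 in vector cells. The gene that was lower was Hoxb3 (4.38-fold), whose second probe was undetected in both undifferentiated lines. Detected in AICD cells alone were Hoxb4, Hoxd9, Hoxd10 and Hoxd12, and in vector cells alone Hoxb6 and Hoxc5, where 7.75% of all genes undetected in the vector line were detected in the AICD line and 3.48% of those detected in it were not.

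In aggregates, 22 Hox genes were detected in both lines, with 3 higher by 2-fold or more in the AICD line (Hoxa7, Hoxc9 and Hoxd9) and 5 lower (Hoxa9, Hoxb3, Hoxc5, Hoxd1 and Hoxd3), against 4.19% and 3.14% of all genes. Hoxb13 was detected in AICD aggregates alone and Hoxb1 in vector aggregates alone, where those shares over all genes were 6.17% and 4.49%. Hoxa9 was the only Hoxa gene at least 2-fold lower, at 0.24 in AICD and 1.58 in vector aggregates. The second Hoxb3 probe read 3.25 and 3.62 in AICD and vector aggregates. With the mean of a gene's probes, 4 Hox genes in place of 5 were lower by 2-fold or more in AICD aggregates. After replating, 20 Hox genes were detected in both lines, with 2 higher by 2-fold or more in the AICD line (Hoxa7 and Hoxc9) and 7 lower (Hoxb3 to Hoxb7, Hoxc5 and Hoxd3), against 4.62% and 3.94% of all genes. Hoxb13 and Hoxd9 were detected in AICD cells alone and Hoxd1 and Hoxd12 in vector cells alone, against 7.71% and 3% of all genes.

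The Hoxb cluster held 5 of those 7 lower genes. All 8 of its genes detected in both lines, Hoxb2 to Hoxb9, were lower in differentiated AICD cells, with a median of -1.29 and 5 of them at least 2-fold. The range ran from -1.71 for Hoxb5 (2.88 against 4.59) to -0.04 for Hoxb9. In aggregates 7 of the 8 were lower, with a median of -0.54, and in undifferentiated cells, where 4 Hoxb genes were detected in both lines, 3 were higher. The 7 Hoxa genes detected in both lines after replating lay between -0.29 and 1.12, with a median of -0.02. These are differences between single arrays, and the neuron and carcinoma marker sums given above differed between the same arrays. Their part in the result was not tested.

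**Figure D4:**
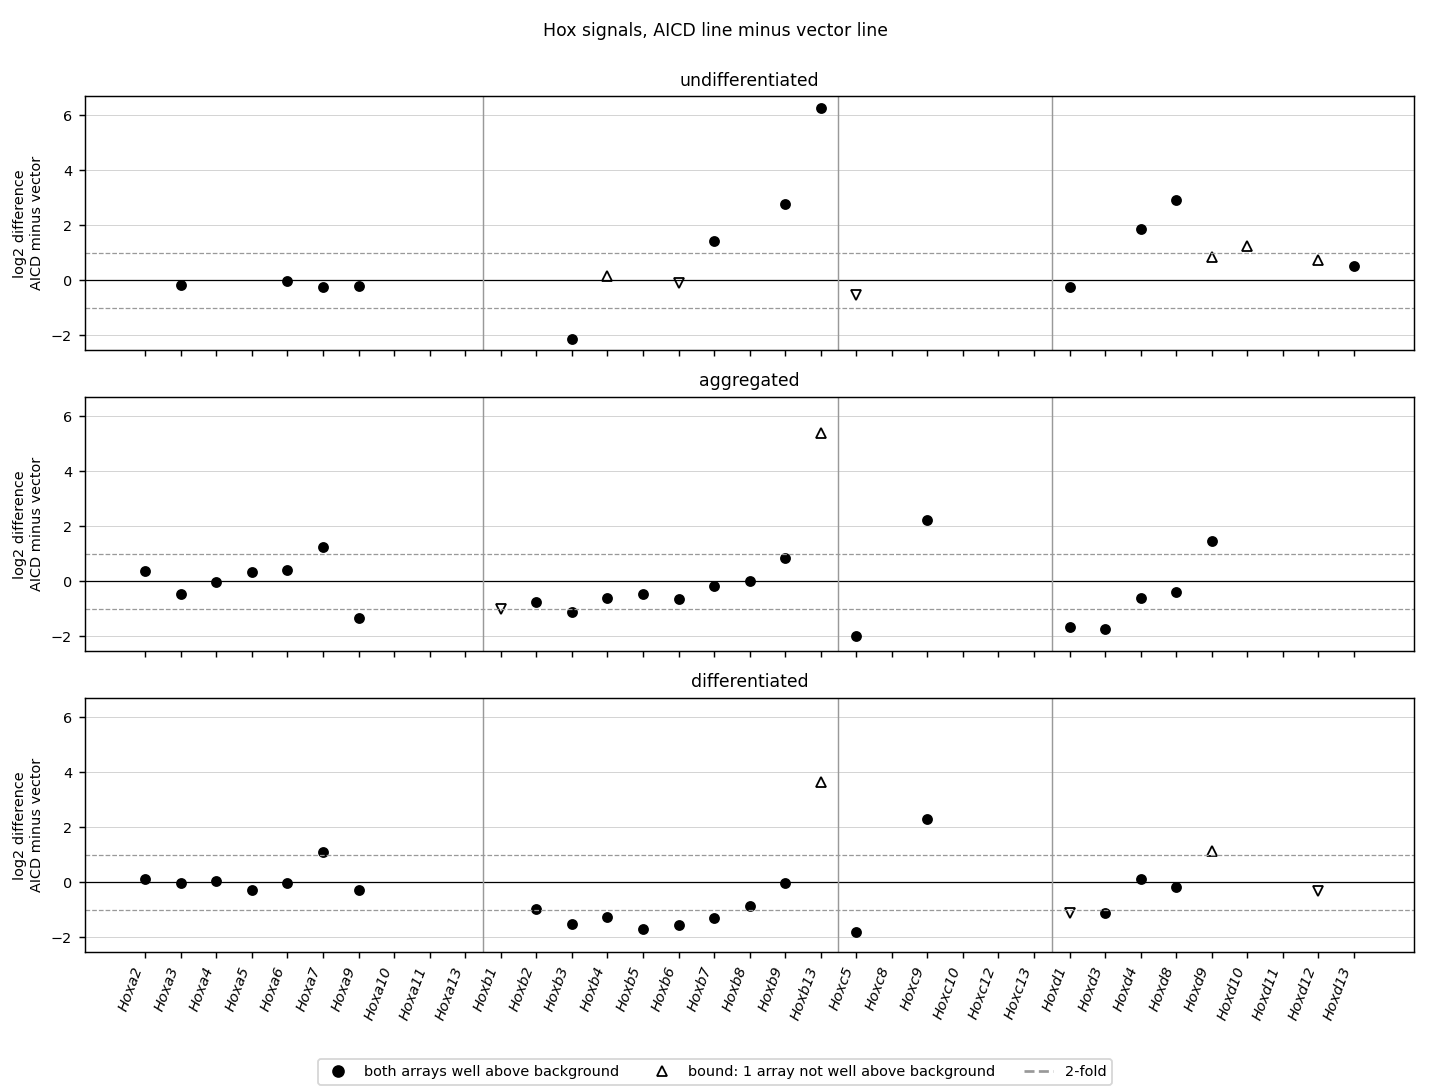
Log2 difference AICD minus vector of each Hox gene in the 3 states; dots were detected in both lines, hollow triangles are bounds where 1 line was not well above background, and dashed lines mark 2-fold. In differentiated cells the Hoxb genes from Hoxb2 to Hoxb8 lie between -1.71 and -0.86, while Hoxb13 and Hoxc9 lie above the upper dashed line.

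Cofactors and regulators of Hox genes are read against all genes, of which 14.3% were higher and 27.8% lower in aggregates with a median of -0.31. All 11 TALE cofactors were tested, of which 5 were higher and 0 lower, with a median of 0.81. They were Meis2 (4.40, adjusted p = 0.035), Pbx4 (1.71), Meis3 (1.47), Pknox1 (1.38) and Pbx3 (0.81). Meis1 was detected in undifferentiated AICD cells (-1.61) and not in undifferentiated vector cells (-7.06), and was detected in both lines later, its difference between aggregates and undifferentiated cells short of the threshold (adjusted p = 0.0559). Meis2 read 1.95 in undifferentiated AICD cells against -1.90 in undifferentiated vector cells. Of the 19 Polycomb and Trithorax regulators, which keep Hox clusters silent or active, 6 were higher and 4 lower in aggregates, with a median of 0.02. The Polycomb proteins Cbx7 and Phc1 were lower (-3.60 and -1.59, adjusted p of 0.0252 and 0.0275) and Bmi1 was higher (2.72, adjusted p = 0.0123).

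Of 15 tested upstream regulators of Hox genes, 10 were higher and 4 lower in aggregates, against 14.3% and 27.8% of all genes, with a median of 1.43. Zfp503, a zinc finger transcriptional repressor, was higher by 8.76 ± 0.33 (adjusted p = 0.00679). The nuclear receptor gene Nr2f1 was undetected before aggregation and at least 17.4-fold higher in aggregates (adjusted p = 0.00915), and Nr2f2 was higher by 5.43 (adjusted p = 0.0259). Rarb, the retinoic acid receptor gene that retinoic acid itself induces, read -1.81 and -3.26 in undifferentiated, 2.58 and 3.13 in aggregated and -1.98 and -1.27 in differentiated AICD and vector cells (5.39 ± 0.61 in aggregates, adjusted p = 0.0132). The following genes of the list were singled out after their values were seen. Cdx2, a caudal-type activator of trunk Hox genes, was detected in aggregates only, at -1.45 in the AICD line and -4.06 in the vector line. The hindbrain regulator Egr2 was lower in aggregates, by -3.59 (adjusted p = 0.0138).

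Of 11 tested genes of the anterior brain, where Hox genes are silent, 1 was higher and 3 were lower in aggregates, against 14.3% and 27.8% of all genes, with a median of -1.02. Otx2, the determinant of fore- and midbrain, read 2.22 and 2.26 in undifferentiated, -0.24 and -4.39 in aggregated and 0.56 and -3.51 in differentiated AICD and vector cells. The lines were alike before aggregation and far apart after it, and the line difference of 2.73 ± 0.98 did not pass (adjusted p = 0.398). In aggregates Otx2 was lower, by -4.55 (adjusted p = 0.0465), and En1, undetected in both aggregates, was at least 3.77-fold lower (adjusted p = 0.0130). Wnt1 was higher by 3.73 (adjusted p = 0.0157), and Otx1 had a difference of -2.72 that did not pass (adjusted p = 0.0531). Of 3 tested ParaHox and Evx genes 1 was higher (Gsx2, undetected before aggregation, at least 14.1-fold) and 1 lower (Gsx1, -1.47) in aggregates, and Evx2, which lies beside Hoxd13, had a difference of 0.61 (adjusted p = 0.0518). Of 8 tested hindbrain and motor neuron genes under Hox control, 2 were higher, Isl1, undetected before aggregation, at least 2.79-fold and Epha4 by 0.88, and 1 was lower, Phox2a by -1.52, while Mnx1 had 1.13 and did not pass (adjusted p = 0.167). The 13 non-coding RNAs of the clusters on the list were not analysed here. In all of these lists limma called 0 genes between the lines over the 3 states and 0 genes between differentiated cells and aggregates, where over all genes 1674 and 4346 had an unadjusted p under 0.05.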

How the data were processed

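Total RNA of 2 P19 lines in 3 states was read on 6 single-colour Agilent arrays. Per the file headers, the deposited intensity values (processed signals) were background-subtracted within each array by Agilent Feature Extraction 10.1.1.1, with no scaling between arrays, and the array design refers to build mm9. The submitters' value table of the same arrays was not used here.

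Control spots and spots flagged as outliers were left out, spots of a probe averaged, and log2 signals taken relative to each array's 75th percentile of signal. A probe was kept when at least 0.5 of its spots were well above background on at least 2 arrays, and a gene was represented by its kept probe with the highest mean. limma 3.58.1 (R 4.3.3) was fitted with state and line as terms over 13381 genes, leaving 2 residual degrees of freedom, with two-sided tests and Benjamini-Hochberg adjustment at 0.05. Nothing says that arrays came from separate cultures, so p-values measure only the spread of the line difference between states. Steps of 1 array against 1 array have no test. "At least N-fold" sets a mean against the dimmest signal called well above background in the main processing, and is not a bound over the alternatives. Alternatives were normexp on median signals (the files hold no mean signals), quantile normalization, other filters, the mean of a gene's probes, the state term alone, slide 2 alone and each array left out. All Hox genes are named, and of each partner list the up to 4 members with the largest limma estimate. The fit was tested on simulated data. RefSeq promoter windows of GRCm38.p6 were searched with Python 3.11.15 and pandas 2.3.3. The members and gene lists were chosen with earlier results of these data known, and 1 Hox gene and some list members are not reported here. The number of arrays limits the precision.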

Additional observations from a re-analysis of the deposited data

Results flagged for a closer look

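Hoxb7 stood on opposite sides in 2 states. The AICD minus vector difference was -1.294 in differentiated cells and 1.428 in undifferentiated cells, on the log2 scale. Each value rests on 1 array per line, and the difference between the states was not tested. The undifferentiated pair lay on slide 1 and the differentiated pair on slide 2, and each difference was taken within its slide.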

How the results depend on the processing

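Between the lines, 47 genes and 1 Hox gene (Hoxb13, higher) were called. With normexp these counts were 78 and 0, with no filter 0 and 0 (7 Hox genes and 1841 genes then had an unadjusted p under 0.05), with probes detected on all 6 arrays 47 and 0 (Hoxb13 was then not tested), and within slide 2 134 and 2 (Hoxb13 and Hoxc9). Leaving out 1 array gave 0 to 134 genes and 0 to 2 Hox genes.

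For aggregated against undifferentiated cells, 5627 genes were called. Leaving out 1 array gave 0 to 4176 genes, 0 to 20 Hox genes higher (20 with all arrays) and 0 to 2 lower. The count was 0 without either aggregate and 1305 without undifferentiated vector cells. Probes detected on all 6 arrays, which left 10 Hox genes, gave 9 higher and 0 lower, and 1 was lower under normexp, quantile normalization and the state term alone. Over the alternatives the log2 difference was as small as 7.74 for Hoxb2, 7.78 for Hoxb5, 7.58 for Hoxb8, 6.08 for Hoxa5 and 5.34 for Hoxa2. For Hoxc9 it was as small as 1.81 and for Hoxd13 -1.82. The folds given as "at least" are therefore bounds for the main processing alone.

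For differentiated against aggregated cells, where 0 genes were called, normexp gave 1368, with 7 Hox genes lower, the all-6 filter 731 and the state term alone 20. For differentiated against undifferentiated cells, 8212 genes were called. Leaving out 1 array gave 878 to 6681 genes and 11 to 18 Hox genes higher, the lower bound of both without differentiated vector cells, and 4657 genes without undifferentiated vector cells. The all-6 filter gave 8 Hox genes higher and 0 lower, no filter 5 lower and the state term alone 1 lower.

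Of the 2-fold counts between single arrays, normexp gave 0 in place of 1 lower between the undifferentiated lines, 1 in place of 2 higher between the differentiated lines and 0 in place of 1 lower in differentiated against undifferentiated vector cells. Quantile normalization gave 1 in place of 0 higher in differentiated against aggregated vector cells. The cause of these changes was not tested, apart from the fewer genes or arrays in a fit. Values of single Hox genes were counted only where the main fit gave an unadjusted p under 0.05. Of these, 322 kept their side of the threshold under the alternatives, 16 lost it and 10 passed anew. With 1 array left out, more lost it. The difference of Hoxa3 in aggregates lies outside this count, though the mean of its probes was called higher there. None of the counted values changed sign past the threshold.

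The labels give no replicate numbers, so arrays were paired by state and by line only. The state term already sets the lines against each other within each state, and the fit with the state term alone leaves out the line. Dim probes limit what can be said of genes near background.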
